A study of Mus musculus with 8 samples.

Results

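The 4 receptor tyrosine kinases for fibroblast growth factors, Fgfr1, Fgfr2, Fgfr3 and Fgfr4, were examined together with their kinase-less relative Fgfrl1 and the co-receptor Klotho beta (Klb). The 6 genes were taken by symbol from the 55401 genes listed for each sample, and each symbol matched 1 gene. They were selected on a measured value, since Fgfr3 was known to be the receptor gene with the lowest level after exposure relative to control, and its relatives were added by family. Differences between the 2 conditions are therefore given for these 6 genes as a description, with no test.

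AML12 is an established line of mouse hepatocytes. RNA was sequenced from 4 dishes exposed for 1 h to Opti-ELF-WMF and from 4 control dishes. Opti-ELF-WMF is a weak magnetic field of extremely low frequency, given as pulses of 4 ms with a peak of 100 mG whose frequency was stepped from 1 to 8 Hz. By the study's general methods, control and exposed cells were prepared together from a single batch, and p-values are read as measuring only the spread between dishes. Whether all 8 dishes share that batch is not stated for the sequenced samples. The cells were grown in DMEM/F-12 with serum, dexamethasone and insulin, transferrin and selenite. Exposed and control dishes were kept in 2 separate, matching incubators, and no field was applied to the controls, so that incubator and condition cannot be told apart. Levels are given in TPM, a measure of transcript abundance per transcript length that is scaled to the same total in every sample. TPM keeps no read depth, which is unknown here, and no counting interval or floor is given. In bulk RNA, fewer cells expressing a gene and less of its RNA per cell cannot be told apart.

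Fibroblast growth factors bind the extracellular part of their receptors together with heparan sulfate, and the paired receptors phosphorylate adaptors that feed the RAS and ERK cascade, which in turn induces its own inhibitors. In hepatocytes, FGFR4 with Klotho beta receives the gut hormone FGF15, which represses bile acid synthesis. FGFRL1 binds ligand and heparan sulfate but has no kinase domain.

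The 4 kinase receptors are related in sequence, which bears on how reads are shared out among them. Over the whole coding sequences, taken from the GENCODE M21 transcript with the longest coding sequence of each receptor, the longest exact run that Fgfr3 shared with a relative was 26 bases, with Fgfr1, against 20 with Fgfr4 and 17 with Fgfr2.

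Words of 31 bases were then compared between the transcripts of each member and those of every other gene in GENCODE M21, on the same strand. Fgfr4, Fgfrl1 and Klb had no word in common with another gene. Fgfr3 shared 33 of 7418 words, 0.445%, all with its processed pseudogene Fgfr3-ps, which was listed at 0 TPM in all 8 dishes. Fgfr2 shared 285 of 10586 words, 2.69%, with Ctbp2, and 314 exon bases are common to both genes on the same strand. Ctbp2 was between 116.62 and 117.3 TPM in the control dishes and between 123.83 and 130.24 TPM in the exposed dishes, with no overlap, so both the level of Fgfr2 and its difference between conditions carry some uncertainty. The part of shared reads in them was not tested. Fgfr1 shared 228 of 10150 words, 2.25%, with 573 genes. On the opposite strand, 998 of the 7158 exon bases of Fgfr3 lie under G630022F23Rik, which was between 0 and 0.09 TPM. Whether strand was used in the counting is not given in the sources used here.

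Fgfr3 lies on mouse chromosome 5 (chr5:33721674-33737068, plus strand, GRCm38), as do Klb (chr5:65348314-65384007) and Fgfrl1 (chr5:108692382-108706924), both on the plus strand. Fgfr2 is on chromosome 7 (chr7:130162451-133123350, minus strand), Fgfr1 on chromosome 8 (chr8:25513654-25575718, plus strand) and Fgfr4 on chromosome 13 (chr13:55152640-55168759, plus strand). The upstream RefSeq promoter window of Fgfr3 (chr5:33721474-33721773, plus strand, GRCm38.p6) is shown because Fgfr3 is the receptor on which the members were selected. Capitals mark GGGCGG or its reverse complement CCGCCC, the core of a GC box.
Fgfr3 promoter: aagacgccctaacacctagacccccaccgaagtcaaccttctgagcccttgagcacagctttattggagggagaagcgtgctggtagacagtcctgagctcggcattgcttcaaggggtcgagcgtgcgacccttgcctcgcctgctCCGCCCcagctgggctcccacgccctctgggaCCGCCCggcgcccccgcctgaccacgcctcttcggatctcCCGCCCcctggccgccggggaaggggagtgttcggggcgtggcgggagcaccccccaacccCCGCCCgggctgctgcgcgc
This window held 4 GC box cores and 26 CpG pairs, and a downstream window of the same gene held 2 and 30. The windows of Fgfr4 and Fgfrl1 held 4 cores each, whereas those of Fgfr2 and Klb held 0. Of 32851 promoter windows of 300 bases, 35.7% held this motif on either strand. A match is a description of the letters and not of a binding site.

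Fgfr2 was the most abundant member. Its level was 76.3, 77.8, 72.7 and 79.2 TPM in control dishes 1 to 4 and 72.1, 71.1, 81.1 and 71.4 TPM in Opti-ELF-WMF dishes 1 to 4. The conditions overlapped, since exposed dish 3 was above every control dish and the other 3 were below all of them. The means were 76.5 TPM ± 2.80 (SD, n = 4) in control and 73.9 TPM ± 4.82 (SD, n = 4) in Opti-ELF-WMF.

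Fgfr4, the receptor of the bile acid signal in liver, followed. It was at 43.7, 44.0, 44.4 and 45.7 TPM in the control dishes and at 43.9, 44.3, 42.8 and 43.7 TPM in the exposed dishes. All 8 values fell within a narrow band and the conditions overlapped. The means were 44.4 TPM ± 0.863 (SD, n = 4) and 43.7 TPM ± 0.608 (SD, n = 4).

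Fgfr3, a receptor best known for restraining the growth of cartilage, was at 10.6, 9.13, 11.6 and 11.2 TPM in the control dishes. In the exposed dishes it was at 7.00, 6.95, 7.11 and 7.48 TPM. Every exposed dish was below every control dish, and the exposed dishes lay closer together than the control dishes. The mean was 10.6 TPM ± 1.06 (SD, n = 4) in control and 7.14 TPM ± 0.240 (SD, n = 4) in Opti-ELF-WMF, 67.2% of the control mean. The difference in mean log2(TPM + 1) was -0.51, a scale on which changes of low genes are understated. This is the difference that the members were chosen by. Of the 12122 genes with at least 1 TPM in at least 4 dishes, 52, including Fgfr3 itself, had a difference as low or lower, and of the 9788 of them with a mean of at least 5 TPM, 19 did, Fgfr3 included.

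Klb, which lets FGFR4 respond to endocrine FGFs, was at 7.10, 6.94, 7.38 and 7.54 TPM in the control dishes and at 6.91, 7.15, 6.75 and 7.09 TPM in the exposed dishes. The conditions overlapped, with the 2 highest values in control dishes. Relative to Fgfr4, the Klb level was 16.3% ± 0.376 (SD, n = 4) in control and 16.0% ± 0.264 (SD, n = 4) in Opti-ELF-WMF.

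Fgfrl1 was at 3.26, 2.68, 2.82 and 3.03 TPM in the control dishes and at 3.75, 4.09, 2.92 and 3.36 TPM in the exposed dishes. Exposed dish 3 lay among the control values and the other 3 exposed dishes were above all of them. It was the only member with a positive difference in mean log2(TPM + 1), 0.19, under TPM and under each of 3 other scalings.

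Fgfr1 was close to 0 in all dishes. It was listed at 0.05, 0.04, 0.07 and 0.01 TPM in the control dishes and at 0 in all 4 exposed dishes, and no fold change is given against a group at 0. It was the only member below the filter of 1 TPM in 4 dishes, which the other 5 passed. Of 7 stellate cell and fibroblast markers, 5 were below 1 TPM in all dishes and Lrat was listed at 0. The summed level of the list was 1356, 1403, 1306 and 1352 TPM in the control dishes and 1510, 1496, 1460 and 1382 TPM in the exposed dishes, nearly all of it from Vim, an intermediate filament gene also used by cultured epithelial cells. The other 6 markers summed to 1.31, 1.93, 1.76 and 0.52 TPM in the control dishes and to 0.64, 1.36, 0.89 and 0.84 TPM in the exposed dishes, and all 7 overlapped between conditions. Of the 7, Col1a2, named after its values were seen, was nearest to the Fgfr1 pattern. It was at 0.37, 0.28, 0.41 and 0.01 TPM in control and at most 0.02 TPM after exposure. The highest Col3a1 value, 0.47 TPM, was in an exposed dish. Outside this list, the receptor tyrosine kinase Pdgfrb, named after its values were seen, was at 0.04, 0.02, 0.05 and 0 TPM in control. It was at 0 in all 4 exposed dishes, as was the kinase Ptk7, at most 0.01 TPM in control. Pdgfra was at 0.02 TPM in Opti-ELF-WMF dish 3, and Ddr2 had means of 0.0275 TPM in control and 0.0525 TPM after exposure. The part of stellate cells and fibroblasts in the Fgfr1 values was not tested.

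**Figure D1:**
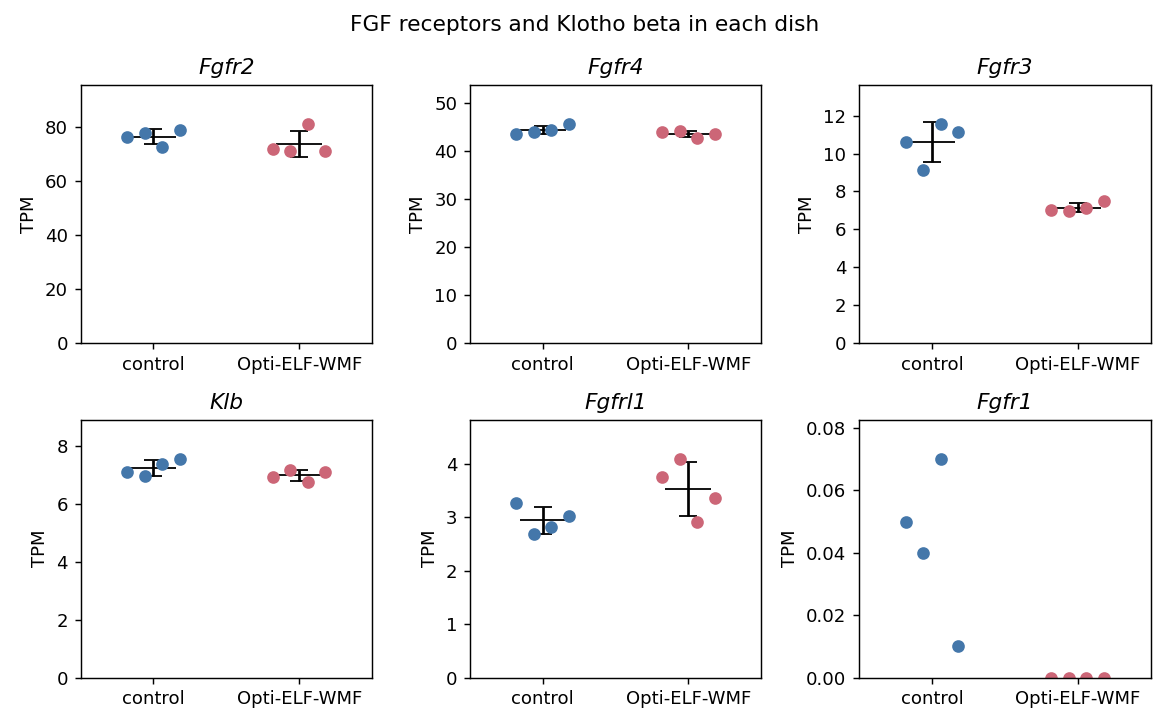
Level in TPM of the 6 members in the 4 control dishes (blue) and the 4 Opti-ELF-WMF dishes (red), a panel per gene with its own axis from 0. Horizontal lines are means and bars are SD (n = 4), drawn for 5 genes and left out for Fgfr1. The dishes of the 2 conditions are apart in the panels of Fgfr3 and Fgfr1, and Fgfr1 is below 0.1 TPM throughout.

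Among the 5 members that passed the filter, 1 (Fgfr3) had all exposed dishes below all control dishes and 0 had all above. Over all 12122 genes tested, the corresponding shares were 1.86% lower and 8.01% higher. Since Fgfr3 was selected on this contrast, nothing is read from its count. Fgfr2, Fgfr4 and Klb had differences in mean log2(TPM + 1) of -0.05, -0.02 and -0.05, against a median of 0.03 over all genes tested. These 3 differences were negative, and that of Fgfr3 too, under TPM and under each of 3 other scalings. With upper-quartile scaling they were -0.0830, -0.0569 and -0.0764, against a median of -0.0053 over all genes, and without single dishes they ran from -0.0946 to -0.0319, from -0.0315 to -0.0110 and from -0.0645 to -0.0295.

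The levels of the members were also compared with each other within dishes, between neighbours in the order of mean TPM. The order was taken from the same 8 dishes, and the gaps in log2(TPM + 1) are given as a description, with no test. Fgfr2 exceeded Fgfr4 by 0.76 ± 0.079 (SD) on the log2 scale in 8 of 8 dishes, and Klb exceeded Fgfrl1 by 0.94 ± 0.169 (SD) in 8 of 8 dishes. Fgfr1 was the lowest member in all 8 dishes, and its distance from Fgfrl1 is set by the pseudocount, 2.05 with 1 and 4.80 with 0.1.

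The pairs with Fgfr3 hold the values on which the members were selected. Fgfr4 exceeded Fgfr3 in 8 of 8 dishes, by a mean of 1.97 in the control dishes and 2.46 in the exposed dishes. Fgfr3 and Klb were the closest neighbours, with Fgfr3 above Klb by 0.49 in the control dishes and by 0.03 in the exposed dishes. Fgfr3 was the higher of these genes in 4 of 4 control dishes and in 3 of 4 exposed dishes, where the levels were nearly equal.

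**Figure D2:**
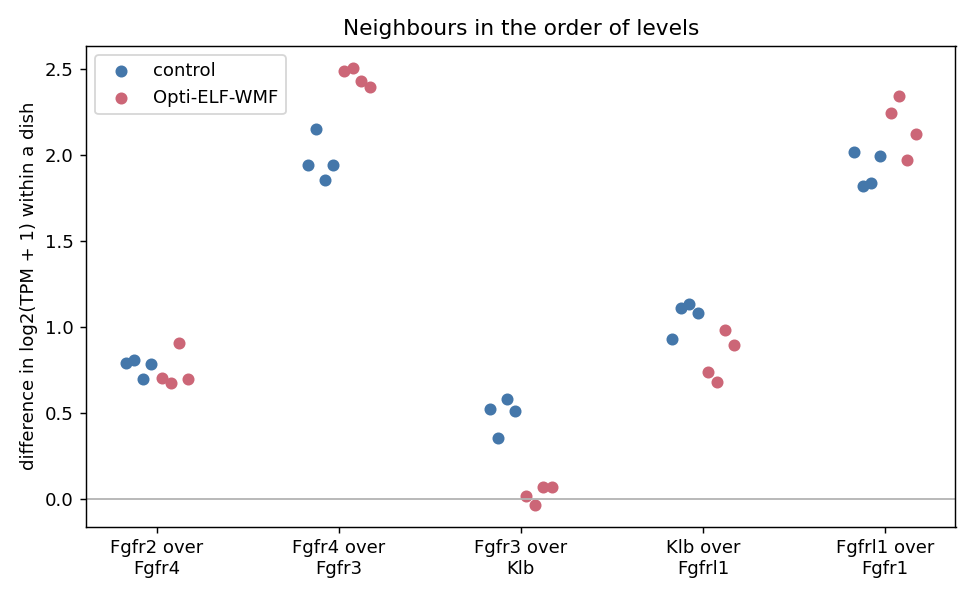
Difference in log2(TPM + 1) within each dish between neighbours in the order of mean level, for control (blue) and Opti-ELF-WMF (red) dishes. A point above 0 means that the first gene was higher. All points are above 0 except Opti-ELF-WMF dish 2 for Fgfr3 over Klb, at -0.04.

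As a share of the summed TPM of the 4 kinase receptors, Fgfr2 made up 58.1% ± 1.22 (SD, n = 4) in control and 59.2% ± 1.80 (SD, n = 4) in Opti-ELF-WMF, and Fgfr4 made up 33.8% ± 0.484 and 35.1% ± 1.60. Fgfr3 made up 8.07% ± 0.826 in control and 5.72% ± 0.282 in Opti-ELF-WMF. The sum itself was 131.6 TPM ± 3.12 (SD, n = 4) and 124.7 TPM ± 4.24 (SD, n = 4), with 1 exposed dish (dish 3, 131.1 TPM) inside the control range. Fgfr4 was 3.84 to 4.82 times Fgfr3 in the control dishes and 5.84 to 6.37 times in the exposed dishes.

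The FGF receptors were set beside 54 other receptor tyrosine kinases. In mean TPM over the 8 dishes, Fgfr2 ranked 5th, Fgfr4 7th, Fgfr3 18th and Fgfr1 33rd of the 58 kinases. The most abundant were Axl, a receptor of the bridging ligand GAS6, at a mean of 443 TPM, and Met, the hepatocyte growth factor receptor, at 143 TPM. Of the 54 others, 19 passed the filter, and their differences in mean log2(TPM + 1) ran from -0.06 to 0.10 with a median of 0.0177, against 0.0263 over all genes tested. With median-of-ratios scaling, upper-quartile scaling and without mitochondrial genes the median was -0.0098, -0.0131 and -0.0092. Over all genes it was -0.0023, -0.0053 and -0.0019. Without single dishes the kinase median ran from -0.0063 to 0.0634. The lowest was without Opti-ELF-WMF dish 2, against 0.0157 over all genes, and the highest without Opti-ELF-WMF dish 1, against 0.0369. The dishes of the 2 conditions overlapped for all 19, whereas 8.01% of all genes tested had all exposed dishes above and 1.86% all below. By limma, 0 of these 19 had an adjusted p under 0.05. At an unadjusted p under 0.05, 0 were higher and 0 lower, against 12.0% and 3.65% of all genes tested. Without Opti-ELF-WMF dish 1, 3 (15.8%) were higher and 0 lower, against 13.5% and 2.78% of all genes. Fgfr3 had the lowest difference of the tested kinases, and since it was selected on that difference, nothing is read from its place. The smallest p was that of Epha2 for higher values (log2 difference 0.05, limma adjusted p = 0.471) and that of Ephb4 for lower values (-0.04, limma adjusted p = 0.672).

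**Figure D3:**
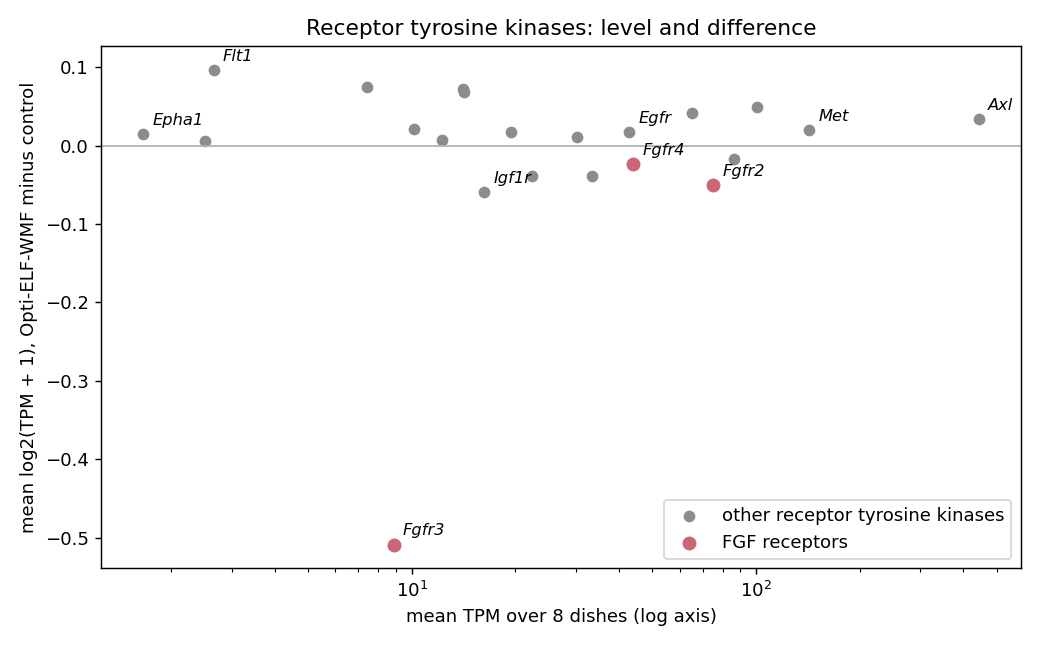
Mean TPM over 8 dishes (log axis) and difference in mean log2(TPM + 1), Opti-ELF-WMF minus control, for the 22 receptor tyrosine kinases that passed the filter. Red points are Fgfr2, Fgfr3 and Fgfr4 and grey points the 19 others. Fgfr3, which was selected on this difference, is at -0.51, and the 19 others lie between -0.06 and 0.10.

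Across all 12122 genes tested, limma gave an adjusted p under 0.05 for 0 genes (0%). At an unadjusted p under 0.05, 1451 genes (12.0%) were higher and 443 (3.65%) lower in the exposed dishes. Rescaling moved this split, to 646 higher and 763 lower with median-of-ratios scaling. Genes of the mitochondrial chromosome held 8.69% to 9.42% of TPM in control and 5.99% to 7.69% in Opti-ELF-WMF. TPM is a closed total, and without those genes the split was 692 higher and 696 lower. Without Opti-ELF-WMF dish 2, 6 genes had an adjusted p under 0.05. Without control dish 2 there were 2, and without control dish 3 there was 1.

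The genes around the receptors were taken from 7 lists with 94 genes, of which 58 were tested. All gene lists used here were chosen with earlier results of these data known. Their counts are therefore a description beside the shares of all genes. By limma 0 of the 58 had an adjusted p under 0.05. At an unadjusted p under 0.05, 15 (25.9%) were higher and 1 (1.72%) was lower in the exposed dishes, against 12.0% and 3.65% of all genes tested, and the median log2 difference was 0.05 against 0.03 over all genes tested. With median-of-ratios scaling 10 were higher (17.2%, against 5.33% of all genes) and 1 lower. With upper-quartile scaling 9 were higher (15.5%, against 4.85%) and 1 lower, and without mitochondrial genes 9 (15.5%, against 5.66%) and 1. Without Opti-ELF-WMF dish 2 the counts were 9 (15.8%, against 8.85%) and 1.

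Of 18 FGF ligands, only Fgf1 passed the filter. Fgf1, a ligand that binds all 4 kinase receptors, was at 18.2, 21.6, 17.8 and 18.2 TPM in the control dishes and at 17.7, 19.8, 21.0 and 20.1 TPM in the exposed dishes. The conditions overlapped (limma adjusted p = 0.777, log2 difference 0.05). This difference ran from 0.0212 without Opti-ELF-WMF dish 3 to 0.1131 without control dish 2, and from 0.0203 to 0.0243 under 3 other scalings. Fgf7, a ligand of the epithelial form of FGFR2, was next, between 0.34 and 1.35 TPM. The other 16 ligands were below 1 TPM in every dish and 7 of them, Fgf3, Fgf4, Fgf5, Fgf6, Fgf8, Fgf16 and Fgf17, were listed at 0 throughout. Fgf15, the gut hormone, reached at most 0.12 TPM, and Fgf21, which liver makes on fasting and which signals through Klotho beta, at most 0.06 TPM.

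The intracellular FGFs are not secreted and do not act through the receptors. Fgf13 was between 31.55 and 38.04 TPM, with overlapping conditions, and Fgf11 was at most 0.29 TPM, while Fgf12 and Fgf14 were listed at 0. Of 4 other klothos and FGF-binding proteins, Fgfbp3 passed the filter at 1.12 to 2.20 TPM (log2 difference -0.21, limma adjusted p = 0.491, overlapping dishes) and Fgfbp1 was between 0.31 and 0.75 TPM. Kl, the klotho that pairs with FGF23, was at most 0.01 TPM.

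Heparan sulfate, the sugar chain of the receptor complex, was represented by 23 proteoglycan and enzyme genes, of which 16 were tested. By limma 0 had an adjusted p under 0.05, and at an unadjusted p under 0.05, 3 (18.8%) were higher and 1 (6.25%) was lower, against 12.0% and 3.65% of all genes tested. The count of 3 became 1 (6.25%) with each of 3 other scalings, against 5.33%, 4.85% and 5.66% of all genes. It was also 1 without control dish 3 (6.25%, against 10.3%) and without Opti-ELF-WMF dish 2 (6.67%, against 8.85%). Agrn, the core protein agrin, was at 124.1, 129.9, 132.9 and 127.2 TPM in the control dishes and at 115.4, 120.4, 118.3 and 120.2 TPM in the exposed dishes. The exposed dishes were all below the control dishes, without passing adjustment (log2 difference -0.12, SE 0.0285, limma adjusted p = 0.131). Ext1, a polymerase of the chain, was at 70.6, 70.8, 68.8 and 73.9 TPM against 77.4, 75.6, 83.2 and 76.3 TPM. Here all 4 exposed dishes were above all control dishes (log2 difference 0.14, SE 0.0371, limma adjusted p = 0.147). Sdc1, the cell surface proteoglycan syndecan, had means of 124.2 TPM ± 2.92 (SD, n = 4) and 131.5 TPM ± 3.69 (SD, n = 4), with overlapping dishes.

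Downstream, 21 of 22 adaptor and ERK cascade genes were tested. By limma 0 had an adjusted p under 0.05, and at an unadjusted p under 0.05, 5 (23.8%) were higher and 0 lower, against 12.0% and 3.65% of all genes tested. The count of 5 became 2 (9.52%) with each of 3 other scalings, against 5.33%, 4.85% and 5.66% of all genes. With no trend in limma's variance model 2 were higher too, against 10.1% of all genes. The count was also 2 without control dish 1 (against 10.8%), control dish 2 (against 9.65%) or Opti-ELF-WMF dish 2 (against 8.85%). Without control dish 3, control dish 4 or Opti-ELF-WMF dish 4 there were 3 (14.3%), against 10.3%, 10.6% and 11.9%. Nras was at 104.8, 102.8, 100.4 and 107.2 TPM in the control dishes and at 111.1, 116.5, 110.8 and 116.1 TPM in the exposed dishes, which were all above the control dishes (limma adjusted p = 0.122, log2 difference 0.13). Hras, the most abundant of the list, had means of 156.8 TPM ± 1.07 (SD, n = 4) and 162.5 TPM ± 2.03 (SD, n = 4), and the adaptor Crk 137.4 TPM ± 2.76 and 142.9 TPM ± 3.79. Frs2, the adaptor that docks directly on FGF receptors, was between 10.41 and 12.52 TPM with overlapping conditions (log2 difference -0.06, limma adjusted p = 0.62).

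Of 12 feedback inhibitors and modulators, 11 matched a gene and 8 were tested, and of 11 transcriptional targets 10 were tested. By limma 0 of these 18 had an adjusted p under 0.05, and at an unadjusted p under 0.05, 2 inhibitors (25%) and 5 targets (50%) were higher and 0 were lower, against 12.0% and 3.65% of all genes tested. Of the 18, 6 had all exposed dishes above all control dishes and 0 had all below, against 8.01% and 1.86% of all genes tested. All 10 targets and 5 of the 8 inhibitors had positive differences, against 7720 of all 12122 genes tested. The median differences were 0.07 for the inhibitors and 0.12 for the targets, against 0.03 over all genes tested. With median-of-ratios scaling these medians were 0.04 and 0.09, against 0.00 over all genes. As both lists were chosen with earlier results of these data known, the counts do not test whether the lists stand out.

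Dusp6, a phosphatase that inactivates ERK, was at 48.9, 53.1, 49.2 and 49.3 TPM in the control dishes and at 57.7, 57.6, 54.0 and 55.3 TPM in the exposed dishes. All exposed dishes were above all control dishes (log2 difference 0.16, SE 0.0371, limma adjusted p = 0.122). Spry2, an inhibitor of receptor signalling named after its values were seen, was the other tested inhibitor with this separation, with means of 16.0 TPM ± 1.01 (SD, n = 4) and 18.4 TPM ± 0.858 (SD, n = 4). Spry4, below the filter and also named after its values were seen, was separated too, at 0.68 to 0.85 TPM in control and 0.89 to 1.06 TPM after exposure. Spred2 and Spred3 had overlapping dishes, with log2 differences of 0.12 (limma adjusted p = 0.326) and -0.11 (limma adjusted p = 0.507). Among the targets, Fosl1, an AP-1 subunit, was at 65.3, 69.1, 65.7 and 66.5 TPM against 73.2, 78.6, 76.0 and 79.7 TPM (log2 difference 0.20, limma adjusted p = 0.122). Its exposed dishes were all above its control dishes, as were those of Myc, Ccnd1 and Dusp5, the last of which was named after its values were seen.

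**Figure D4:**
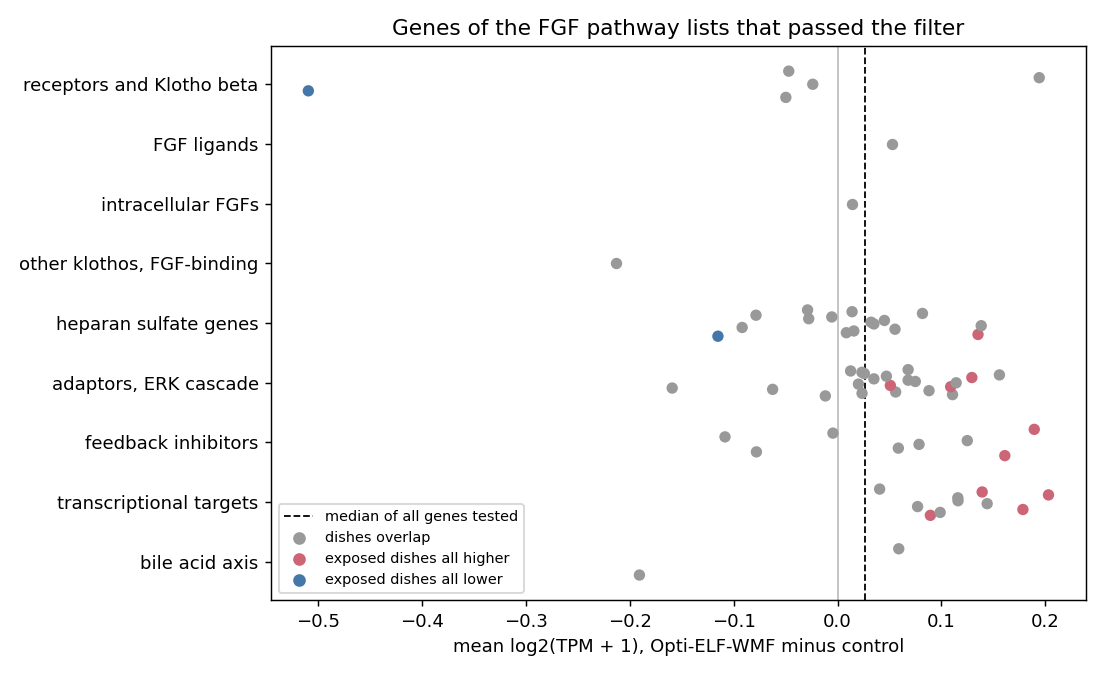
Difference in mean log2(TPM + 1), Opti-ELF-WMF minus control, for every tested gene of the members and of 8 lists, a point per gene, with the median of all genes tested as a dashed line. Red and blue points are genes whose exposed dishes were all above or all below the control dishes. The 10 targets lie right of 0, and Fgfr3 is at -0.51.

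In the bile acid axis that FGFR4 and Klotho beta govern in liver, 2 of 9 genes were tested. Cyp7a1, the rate-limiting enzyme of bile acid synthesis, was listed at 0 in all dishes, as were Cyp8b1 and Cyp7b1. Nr1h4, the bile acid receptor FXR, was present at 160.8 TPM ± 3.30 (SD, n = 4) in control and 167.6 TPM ± 3.84 (SD, n = 4) in Opti-ELF-WMF (log2 difference 0.06, limma adjusted p = 0.32). Cyp27a1, of the alternative pathway, had means of 12.4 TPM ± 1.16 (SD, n = 4) and 10.7 TPM ± 0.450 (SD, n = 4), with overlapping dishes (log2 difference -0.19, limma adjusted p = 0.216).

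The label of the cells was checked against markers. Of 12 hepatocyte markers 11 were tested, Krt8 was the most abundant, at 2206 to 2431 TPM, and Trf, Ttr, Apob and Hnf4a were all above 180 TPM. The summed level of the list was 5919, 5981, 5718 and 5933 TPM in the control dishes and 6176, 6286, 6103 and 6063 TPM in the exposed dishes. Without the keratins Krt8 and Krt18, the other 10 markers summed to 1756, 1764, 1687 and 1729 TPM in control and to 1792, 1783, 1807 and 1685 TPM after exposure, and these overlapped. Of the 11 tested markers 6 had positive and 5 negative differences. By limma 0 had an adjusted p under 0.05. At an unadjusted p under 0.05, 2 (18.2%) were higher and 1 (9.09%) lower, against 12.0% and 3.65% of all genes. The 2 were Krt8 and Krt18, whose exposed dishes were all above the control dishes. Their log2 differences were 0.07 and 0.09 (limma adjusted p = 0.194 and 0.166). With median-of-ratios and upper-quartile scaling 0 were higher, against 5.33% and 4.85%, and without Opti-ELF-WMF dish 4 there were 4 (40%, against 11.9%). Alb was at 58.2, 52.6, 53.2 and 56.4 TPM in control and at 48.2, 51.5, 53.0 and 46.1 TPM after exposure (log2 difference -0.15, limma adjusted p = 0.21). Cps1, a urea cycle enzyme of mature hepatocytes, was at most 0.04 TPM. Apoa1 and Afp were also low, at 3.12 to 5.29 TPM and 0.48 to 1.33 TPM. Of 5 cholangiocyte markers 4 passed the filter, with Krt19 highest, at 1101 to 1244 TPM, while Epcam was at most 0.13 TPM. All 4 endothelial markers were below 1 TPM with Cdh5 listed at 0, and of 4 macrophage markers Adgre1 and Clec4f were listed at 0 and Cd68 was highest, at 1.05 to 2.21 TPM.

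The genes most like Fgfr3 over the 8 dishes, by Pearson r of log2(TPM + 1), were Hps3 (r = 0.971), Rxrb (r = 0.967) and Rbm12b2 (r = 0.959). Hps3 was between 15.19 and 15.53 TPM in the control dishes and between 14.35 and 14.62 TPM in the exposed dishes, so that this likeness holds the difference between conditions. For deviations from the condition means, the highest values were those of Sf3b1 (r = 0.964), Phyhd1 (r = 0.964) and Gm16001 (r = 0.960). For Fgfr2 they were Eml5 (r = 0.948), Gm4316 (r = 0.944) and Ly6c1 (r = 0.942) by level, and Cep55 (r = 0.965), Ext1 (r = 0.964) and Zfp800 (r = 0.961) by deviation. These are the highest of 12121 correlations over 8 dishes of the same cell line and are given as a description.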

How the data were processed

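The authors sequenced stranded mRNA libraries from 8 dishes and deposited a TPM value for each of 55401 genes. The submitters' processing notes name Trimmomatic 0.39, STAR 2.7.4a, RSEM 1.3.3 and build mm10. The annotation used to list genes is not given in the sources used here, and sequences came from GENCODE M21 and RefSeq tables of GRCm38. The members and lists were chosen with earlier results of these data known. Genes with at least 1 TPM in at least 4 of 8 samples (12122) were tested with limma 3.58.1 in R 4.3.3 on log2(TPM + 1), using eBayes with trend and Benjamini-Hochberg adjustment over all genes tested. The step was tested on simulated data. The planned exact sign-flip test of member levels (Python 3.11.15) is not quoted, since its pairs came from the same dishes and 2 of them hold Fgfr3. Named genes were all members; from each pathway list the 2 with the highest mean TPM and the smallest limma p in each direction; from marker lists the most abundant and those at 0; and the 3 genes most like Fgfr3 and Fgfr2 by each measure. Other genes were named outside this rule, after their values were seen. These were the ligands, intracellular FGFs and bile acid enzymes listed at 0, and Fgf15, Fgf21, Kl, Ctbp2, Pdgfrb, Pdgfra, Ptk7, Ddr2, Spry2, Spry4 and Dusp5. Also named in this way were the markers Col1a2, Col3a1, Alb, Cps1, Apoa1, Afp, Epcam, Trf, Ttr, Apob, Hnf4a and Krt18. Other scalings, filters, pseudocounts, a replicate block and samples left out were tried as alternatives.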

Additional observations from a re-analysis of the deposited data

Results flagged for a closer look

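Among 61 groups of 4 dishes over 31 genes, 5 held a dish whose gap to the nearest other dish took up a larger share of the range of its group than Dixon's 95% value for 4 samples. Chance gives about 1 in 20 such groups. Fgfr2 was at 81.14 TPM in Opti-ELF-WMF dish 3, with the other exposed dishes between 71.11 and 72.13 TPM. Fgf1 was at 21.55 TPM in control dish 2, against 17.8 to 18.24 TPM in the other control dishes. Dusp6 was at 53.06 TPM in the same dish, against 48.91 to 49.32 TPM. Frs2 was at 12.52 TPM in control dish 3, against 11.29 to 11.47 TPM. Spred2 was at 18.52 TPM in Opti-ELF-WMF dish 1, against 21.37 to 21.89 TPM.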

How the results depend on the processing

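Among the members, the differences of Fgfr2, Fgfr3, Fgfr4 and Klb stayed negative and that of Fgfrl1 positive in all 13 alternatives, of which the replicate block cannot change a difference of means. Of 78 member values 74 moved by less than 1 SD. This was fixed in advance for the 6 values of the block and for every value without a single dish. Leaving out 1 of 4 dishes cannot move the difference by the pooled SD of both groups. For Fgfr1, 4 of those values could not change at all, since it was listed at 0 in every exposed dish. Only the pseudocount and the other scalings could have moved a value further. Fgfr3 lay between -0.57 and -0.47 without any single dish. Fgfr4 was at -0.0537, -0.0569 and -0.0531 with median-of-ratios scaling, upper-quartile scaling and without mitochondrial genes. For Fgfr1 the size of the difference is set by the pseudocount, -0.0597 with 1 and -0.4934 with 0.1, and is not read as a fold change. The sign of the gap between neighbouring members was the same in all 55 values. For every pair but Fgfr3 over Klb this was fixed in advance, since the first gene was higher in 8 of 8 dishes. The order was also taken from the same dishes.

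The limma count at an adjusted p under 0.05 was 0, and became 1 with the filter of 1 TPM in all samples, 1 with median-of-ratios scaling, 1 with upper-quartile scaling, 1 without mitochondrial genes, 1 without trend, and 0 to 6 without single dishes. For the pathway lists it was 0 in all 16 alternatives. At an unadjusted p under 0.05, the counts over all genes were 646 higher and 763 lower with median-of-ratios scaling, 588 and 800 with upper-quartile scaling, 692 and 696 without mitochondrial genes, and 1733 (6.82%) and 832 (3.27%) with the filter above 0 TPM in any sample, which tests 25413 genes. Higher pathway genes numbered 9 with upper-quartile scaling (15.5%, against 4.85% of all genes) and 9 without mitochondrial genes (15.5%, against 5.66%). Without single dishes they numbered 9 to 19 (15.8% to 33.3%, against 8.85% to 13.5%). Lower pathway genes numbered 2 with the filter above 0 TPM (2.41%, against 3.27%) and 2 without trend (3.45%, against 4.12%). Higher adaptor and cascade genes numbered 2 (9.52%) with median-of-ratios scaling, upper-quartile scaling, without mitochondrial genes and without trend. The shares of all genes were 5.33%, 4.85%, 5.66% and 10.1%. Without single dishes 2 to 6 were higher (9.52% to 28.6%, against 8.85% to 13.5%). Without trend, 1 lower feedback gene was counted (12.5%, against 4.12% of all genes). Fgf13 changed sign (-0.0155, -0.0186 and -0.0148 under the 3 scalings, -0.0313 to 0.0648 without single dishes), as did Met (-0.0098, -0.0131 and -0.0092, and -0.0089 to 0.0652). Under the 3 scalings the median of all genes moved alike, from 0.0263 to -0.0023, -0.0053 and -0.0019, so these changes of sign are not particular to the 2 genes. Without single dishes Frs2 ran from -0.0784 to -0.0306 and Fgfbp3 from -0.2925 to -0.1252. Epha2 ran from 0.0318 to 0.0634 and Ephb4 from -0.0661 to -0.0214.

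With the replicate number as a replicate block, 0 genes had an adjusted p under 0.05. Unadjusted, 1430 (11.8%) were higher and 459 (3.79%) lower, with 12 (20.7%) and 1 (1.72%) in the pathway lists. Deviations of same-numbered dishes correlated at -0.03, -0.04, 0.00 and 0.03, so the dishes share only a number.

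The 4 dishes a group are taken to come from a single cell batch, and a p that misses the threshold does not show that levels did not differ. Read depth is unknown from TPM, so low genes such as Fgfr1 carry an error that cannot be given.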
